A study of Caenorhabditis elegans with 14 samples.

Results

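Superoxide dismutases, catalases, the glutathione synthesis gene gcs-1 and the mitochondrial thioredoxin gene trx-2 were followed in whole wild-type N2 nematodes (Caenorhabditis elegans). The 10 genes are sod-1 to sod-5, ctl-1 to ctl-3, gcs-1 and trx-2, and they were chosen by name: every probe set whose annotated genes all belong to them was taken, which gave 11 of the 22548 probe sets tested. Of these, 10 name 1 gene each and cover 8 genes, with 2 probe sets each for gcs-1 and trx-2. The other matches both ctl-1 and ctl-3, so neither gene can be named from it, and it is called the shared catalase probe set. No filter on low values was applied, so all 11 were tested. The probe sets of sod-1 and ctl-2, the shared catalase probe set and 1 each of gcs-1 and trx-2 have names ending in _s_at, which mark a possible match to several transcripts; for gcs-1 and trx-2 that one is called the multi-match probe set and the other the unique probe set.

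Superoxide dismutases turn the superoxide radical, made mainly by leaking electron transport, into hydrogen peroxide. Catalases break hydrogen peroxide down to water and oxygen, and peroxidases of the thioredoxin and glutathione systems reduce it to water at the cost of NADPH. In worms, several of these genes are known outputs of the stress transcription factors DAF-16 (a FOXO factor) and SKN-1 (the worm counterpart of Nrf2), and sod-3 and gcs-1 are the usual reporters of each.

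RNA was hybridised to 14 one-colour Affymetrix arrays. Worms of a shared synchronised culture, raised at 15 °C on Escherichia coli to the L4 larval stage, were divided between a sham group (5 arrays; 2.5 h at 26 °C, no field) and a microwave group (5 arrays; the same time and temperature in a continuous field absorbed at 5 to 40 mW per kg). The frequency of that field is 1.8 GHz in one protocol text and 1 GHz in the other. Each of these arrays holds pooled RNA from 3 exposures. There are also 2 heat control arrays and 2 arrays labelled heat shock, whose labels repeat the microwave protocol, so the heat exposure is not described here. All worms shared the strain, and no transgene or mutation is named. The deposited values are ratios. Every sham column holds only 1, so each microwave value was taken as relative to its equally numbered sham array, and the heat values as relative to the mean of the 2 heat controls. How strongly a gene was expressed is therefore unknown, levels of different genes cannot be compared, and the number of arrays limits the precision. In these whole-worm samples fewer cells of a type and less RNA per cell cannot be told apart.

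The labels of the heat arrays run against a known response. The heat-inducible chaperone genes hsp-16.2, hsp-16.41 and hsp-70 had log2 fold changes of -4.86 ± 0.17, -4.98 ± 0.36 and -3.34 ± 0.17 (SE, n = 2 per group) in the arrays labelled heat shock. Directions are therefore given as labelled and would turn over if labels or ratios were inverted. The median probe set stood 0.12 log2 units higher in those arrays. Sizes are as deposited, and 0.12 is the point a typical probe set reached.

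In the heat comparison the antioxidant genes moved apart from each other. In the arrays labelled heat shock gcs-1 was about 4-fold lower and both catalase probe sets were close to 3-fold lower, while trx-2 was about 2.5-fold higher. Among the superoxide dismutases sod-5 rose, sod-2 fell slightly, and sod-1, sod-3 and sod-4 did not pass the test. In all, 8 of the 11 probe sets passed the limma test at a threshold of 0.05 after Benjamini-Hochberg adjustment over all probe sets, 3 higher and 5 lower. The 8 include both probe sets of gcs-1, of trx-2 and of the catalases, so they are not 8 separate genes. Over all probe sets 30.0% passed, 14.7% higher and 15.3% lower. The median log2 fold change of the 11 was -0.50 against 0.12 over all probe sets, and the median size regardless of sign was 1.26 against 0.36. The groups did not overlap in 9 of the 11, where 72.4% of all probe sets had groups that did not overlap. Leaving out 1 array labelled heat shock leaves 1 array in that group, and calls then fell over all probe sets, not only among the 11. The log2 fold changes of the 11 kept their sign with either array labelled heat shock left out. Leaving out 1 heat control also leaves 1 array in a group, but calls over all probe sets then fell less. The cause of this difference was not tested. Quantile normalisation forces control and treated ratios to the same spread. It left 0 of the 11 by limma (5 at an unadjusted p under 0.05) and 0 of all 22548 probe sets (1959 unadjusted).

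**Figure D1:**
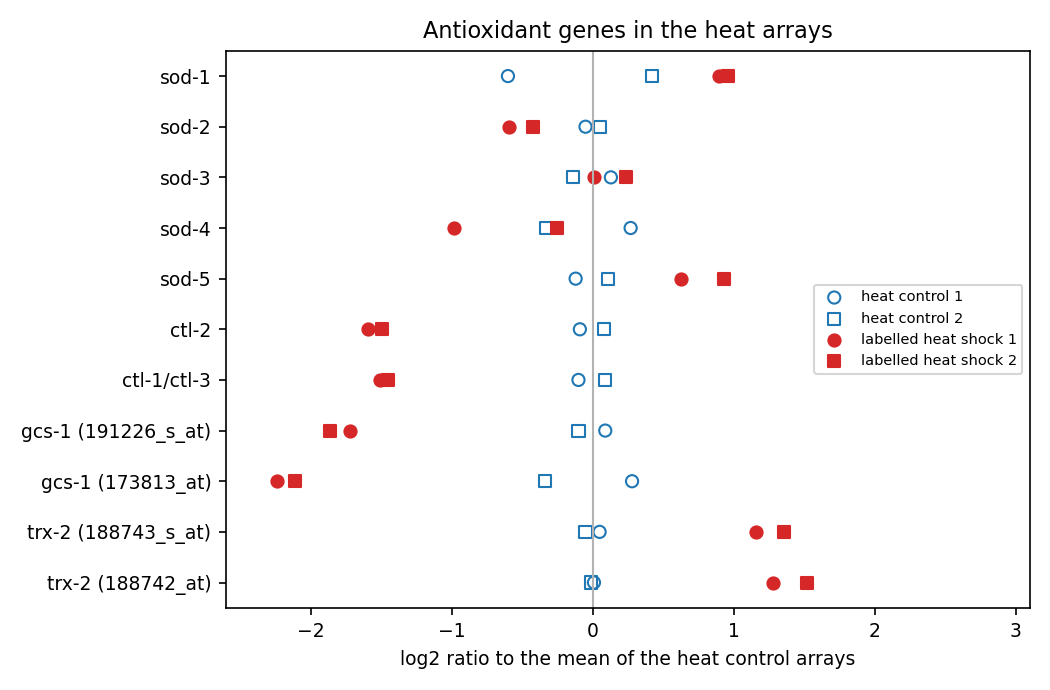
Log2 ratio (horizontal axis) of each of the 11 probe sets (rows) in the 2 heat control arrays (open blue) and the 2 arrays labelled heat shock (filled red); circles are replicate 1 and squares replicate 2. The red points of gcs-1 and the catalases lie between -2.24 and -1.45, those of trx-2 between 1.16 and 1.52, and for sod-3 and sod-4 the red and blue points overlap.

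The superoxide dismutases divide by metal and place. The copper and zinc enzymes are SOD-1, the main cytosolic form, SOD-5, a minor cytosolic form known for its induction in dauer larvae, and SOD-4, which is secreted or membrane-bound; the manganese enzymes SOD-2 and SOD-3 both work in the mitochondrial matrix. The log2 ratios of sod-5 were -0.12 and 0.11 in the heat controls and 0.63 and 0.93 in the arrays labelled heat shock. Both arrays labelled heat shock lay above both controls, and sod-5 rose 1.73-fold, at a log2 fold change of 0.79 ± 0.17 (SE, n = 2 per group; limma adjusted p = 0.0236). Leaving out the first heat control gave a log2 fold change of 0.671. Leaving out the first or the second array labelled heat shock gave 0.939 and 0.635. The call was lost in each of these fits. Without the first array labelled heat shock this held for all probe sets.

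For sod-1 the log2 ratios were -0.60 and 0.42 in the controls against 0.90 and 0.96 in the arrays labelled heat shock. The 2 controls lay 1.02 apart, the widest control gap of the 11 probe sets, while the 2 arrays labelled heat shock nearly coincided. The log2 fold change of 1.02 ± 0.34 (SE, n = 2 per group) is larger than that of sod-5, yet it missed the threshold (limma adjusted p = 0.0732). Its value rests on which control is used: 1.53 without control 2 (limma adjusted p = 0.00324) and 0.51 without control 1 (limma adjusted p = 0.0654). With the 5 microwave arrays sharing the estimate of the spread, which assumes equal spread in both comparisons, sod-1 passed (limma adjusted p = 0.048).

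The ratios of sod-4 scattered in both groups, at 0.27 and -0.33 in the controls and -0.98 and -0.25 in the arrays labelled heat shock on the log2 scale. The groups overlap, and the log2 fold change was -0.59 ± 0.31 (SE, n = 2 per group; limma adjusted p = 0.203), with a 95% interval from -1.38 to 0.21. The value depended on single arrays: it was -0.22 without the first and -0.95 without the second array labelled heat shock, and -0.29 without the first and -0.89 without the second control.

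The mitochondrial forms differed in their calls. For sod-2, the constitutive manganese enzyme, the log2 ratios were -0.05 and 0.05 in the controls and -0.59 and -0.42 in the arrays labelled heat shock. It fell 1.41-fold, with a log2 fold change of -0.50 ± 0.13 (SE, n = 2 per group; limma adjusted p = 0.0433). This is the weakest of the 8 calls. Leaving out any 1 of the 4 arrays ended it, at log2 fold changes from -0.585 to -0.414. Without the first array labelled heat shock this held for all probe sets. The fit with the replicate block gave a limma adjusted p of 0.0714. For sod-3, the stress-inducible manganese enzyme, the log2 ratios were 0.13 and -0.14 in the controls and 0.01 and 0.24 in the arrays labelled heat shock. These overlap, and the log2 fold change of 0.13 ± 0.16 (SE, n = 2 per group; limma adjusted p = 0.568) stood near the median of all probe sets; its 95% interval ran from 0.825-fold to 1.45-fold. Changes inside that interval, which is not adjusted for the number of probe sets, were neither shown nor excluded with 4 arrays. Taken within each array, sod-3 minus sod-2 was 0.18 and -0.19 log2 units in the controls and 0.59 and 0.65 in the arrays labelled heat shock. These do not overlap either, but an exact two-sided permutation test of 2 against 2 cannot go below the p = 0.333 that it gave.

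The 3 catalase genes ctl-2, ctl-1 and ctl-3 follow each other directly in the genome and are close copies in sequence, so their probe sets may share signal and the values of single genes are uncertain. CTL-2 is the peroxisomal and CTL-1 the cytosolic enzyme; ctl-3 is known from neurons and pharyngeal muscle. The ctl-2 probe set stood at -0.09 and 0.08 in the controls and at -1.59 and -1.49 in the arrays labelled heat shock (log2 ratios). The shared catalase probe set stood at -0.10 and 0.09 in the controls and at -1.51 and -1.45 in the arrays labelled heat shock. In both, the gap between the 2 arrays of a group was far smaller than the step between groups. The ctl-2 probe set fell 2.90-fold (log2 fold change -1.53 ± 0.13, SE, n = 2 per group; limma adjusted p = 0.00258). The shared catalase probe set fell 2.78-fold (log2 fold change -1.48 ± 0.13, SE; limma adjusted p = 0.00276). Leaving out the first array labelled heat shock gave log2 fold changes of -1.48 for ctl-2 and -1.44 for the shared catalase probe set. Both calls were lost there, as they were for all probe sets.

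The array also carries 3 control probe sets named for catalase, placed at the 3' end, the middle and the 5' end of the transcript; the annotation used here does not tie them to a gene, and they stayed out of the test. In the arrays labelled heat shock they read -1.50 and -1.54 at the 3' end, -1.44 and -1.42 in the middle, and -1.79 and -1.66 at the 5' end. All 5 catalase readings thus lay between -1.79 and -1.42 in those arrays. In the controls all 5 lay between -0.23 and 0.20, and the 3' minus 5' difference was 0.19 and -0.15 there against 0.29 and 0.12 in the arrays labelled heat shock.

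**Figure D2:**
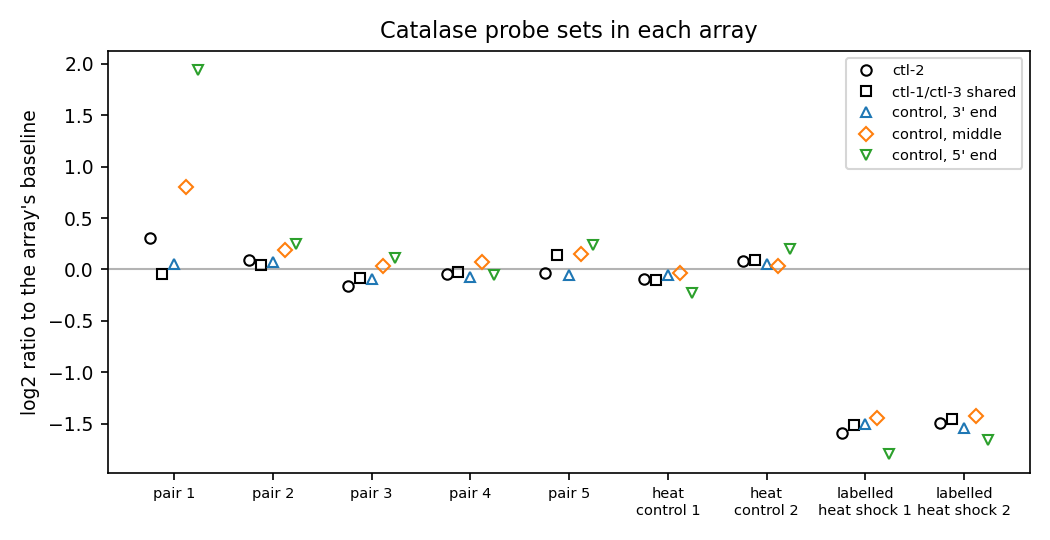
Log2 ratio (vertical axis) of the ctl-2 probe set, the shared ctl-1 and ctl-3 probe set and the 3 catalase control probe sets in the 5 microwave to sham pairs and the 4 heat arrays (horizontal axis). The 5 readings lie together near -1.5 in both arrays labelled heat shock and spread in microwave pair 1, where the 5' control reads 1.94.

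The gene gcs-1 encodes the catalytic subunit of glutamate-cysteine ligase, the rate-limiting enzyme of glutathione synthesis, and had the largest decrease of the 8 genes measured singly. Its unique probe set read 0.28 and -0.34 in the controls and -2.24 and -2.11 in the arrays labelled heat shock (log2 ratios). The multi-match probe set read 0.09 and -0.10 in the controls and -1.72 and -1.86 in the arrays labelled heat shock. Both separated the groups completely, at 4.43-fold and 3.45-fold lower. Averaged, gcs-1 fell 3.91-fold (log2 fold change -1.97 ± 0.17, SE, n = 2 per group; limma adjusted p = 0.00311 over all genes). Leaving out the first array labelled heat shock gave log2 fold changes of -2.08 for the unique and -1.85 for the multi-match probe set. Both calls were lost there, as they were for all probe sets. Leaving out the second gave -2.21 and -1.72. The unique probe set lost its call there, where calls were also fewer over all probe sets.

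TRX-2 is the thioredoxin of the mitochondrial matrix, which reduces mitochondrial peroxiredoxin. Its unique probe set read 0.01 and -0.01 in the controls and 1.28 and 1.52 in the arrays labelled heat shock (log2 ratios). The multi-match probe set read 0.05 and -0.05 in the controls and 1.16 and 1.36 in the arrays labelled heat shock. The probe sets differed from each other by at most 0.16 in any heat array, and each separated the groups. Averaged, trx-2 rose 2.52-fold (log2 fold change 1.33 ± 0.13, SE, n = 2 per group; limma adjusted p = 0.00404 over all genes). With a gene length trend removed, the log2 fold changes were smaller, at 1.138 for the unique and 0.999 for the multi-match probe set. Both calls were kept there. Leaving out the first array labelled heat shock gave log2 fold changes of 1.52 for the unique and 1.36 for the multi-match probe set. Both calls were lost there, as they were for all probe sets. Leaving out the second gave 1.28 and 1.16. The multi-match probe set lost its call there, where calls were also fewer over all probe sets.

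In the microwave comparison no antioxidant gene passed the test, and the mean ratios were small beside the spread of the pairs. The mean log2 ratios of the 11 probe sets ran from -0.22 to 0.19, with 7 above 0, and 0 of 11 passed (limma adjusted p from 0.861 to 0.994; 0 at an unadjusted p under 0.05). Over all probe sets 0% passed, with 782 of 22548 at an unadjusted p under 0.05. The median size regardless of sign was 0.05 for the 11 and 0.06 for all probe sets. The 95% intervals are not adjusted for the number of probe sets, so a change beyond them could still have missed the threshold. For sod-3 the interval ran from 0.854-fold to 1.11-fold, for ctl-2 from 0.912-fold to 1.16-fold, and for the shared catalase probe set from 0.924-fold to 1.09-fold. It reached higher for sod-1, from 0.883-fold to 1.39-fold, and for the multi-match probe set of gcs-1, from 0.95-fold to 1.37-fold.

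The gene farthest below 0 was trx-2. Its unique probe set read -0.60, 0.17, -0.52, 0.18 and -0.32 in pairs 1 to 5, and the multi-match probe set read -0.31, -0.02, -0.27, 0.25 and -0.24. Both were below -0.2 in pairs 1, 3 and 5 and not in pairs 2 and 4. The means were -0.22 ± 0.13 and -0.12 ± 0.09 (SE, n = 5), and the 95% interval of the first ran from 0.698-fold to 1.06-fold. With 1 pair left out the first mean ran from -0.31 (without pair 4) to -0.12 (without pair 1), and the second from -0.21 (without pair 4) to -0.07 (without pair 1). The probe set with the highest mean was the multi-match probe set of gcs-1, which read 0.74, 0.09, 0.15, -0.11 and 0.10, for a mean of 0.19 ± 0.11 (SE, n = 5). That mean was 0.06 without pair 1. Its unique probe set read 0.17, -0.07, 0.30, -0.08 and -0.09, with a mean of 0.04 ± 0.07 (SE, n = 5). Both gcs-1 probe sets were above 0 in pairs 1 and 3 and below 0 in pair 4.

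For sod-1 the log2 ratios were 0.85, 0.12, -0.20, 0.02 and -0.05. The mean of 0.15 ± 0.14 (SE, n = 5) rests on pair 1 and was -0.03 without it. The other superoxide dismutases stayed nearer to 0. The sod-2 ratios ran from -0.24 to 0.16, those of sod-3 from -0.39 to 0.15, those of sod-4 from -0.18 to 0.33 and those of sod-5 from -0.24 to 0.05, and each group of 5 held values on both sides of 0. The catalases did so too: ctl-2 ran from -0.16 to 0.31 and the shared catalase probe set from -0.08 to 0.14.

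**Figure D3:**
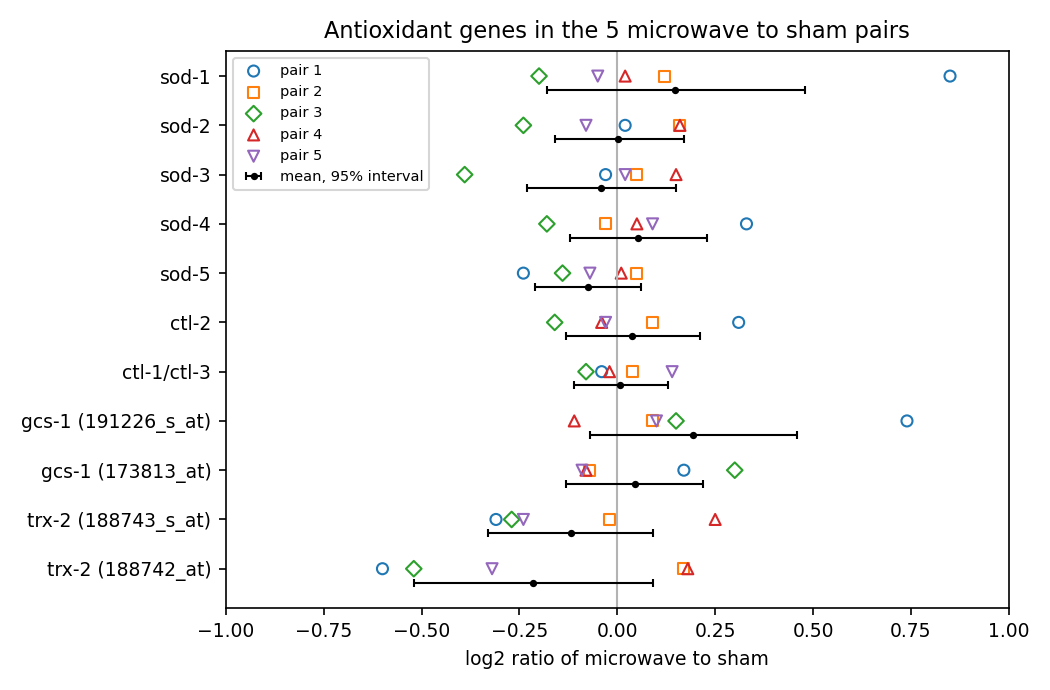
Log2 ratio of microwave to sham (horizontal axis) for the 11 probe sets (rows) in pairs 1 to 5 (open symbols), with the mean and its 95% interval from limma in black below each row. Every interval includes 0; pair 1 holds the highest values, at 0.85 for sod-1 and 0.74 for a gcs-1 probe set.

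Pair 1 stands apart from the other pairs. Its log2 ratios over all probe sets had an SD of 0.387, against 0.101 to 0.164 in pairs 2 to 5. It held the value farthest from 0 for 7 of the 11 probe sets, against 53.9% of all probe sets. Along the catalase control transcript it read 0.05 at the 3' end, 0.80 in the middle and 1.94 at the 5' end, while ctl-2 read 0.31 and the shared catalase probe set -0.04 in the same pair. In pairs 2 to 5 the 3 control readings lay between -0.09 and 0.25. The part of this end-dependent signal in the sod-1 and gcs-1 values of pair 1 was not tested.

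The responses in the comparisons were set against each other in 1 fit over the 9 arrays with measured spread. That fit assumes equal spread for the microwave to sham ratios and the heat values, which have unlike baselines. The heat log2 fold change minus the microwave log2 ratio passed for 8 of the 11 probe sets (limma), 3 higher and 5 lower, against 37.1% of all probe sets, 20.3% higher and 16.8% lower. For gcs-1 the differences were -2.19 ± 0.23 and -1.98 ± 0.25 (SE; limma adjusted p = 0.000146 and 0.000432), for ctl-2 -1.57 ± 0.17 (adjusted p = 0.000182) and for the shared catalase probe set -1.49 ± 0.13. For trx-2 they were 1.62 ± 0.29 and 1.38 ± 0.20 (SE; limma adjusted p = 0.00235 and 0.000904). The sod-5 difference was 0.86 ± 0.16 and that of sod-2 -0.50 ± 0.17 (SE; limma adjusted p = 0.00331 and 0.0395). Those of sod-1, sod-3 and sod-4 did not pass, at limma adjusted p-values of 0.109, 0.527 and 0.106. Were the heat labels or ratios inverted, the sizes and p-values of these differences would change, not only their direction.

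The surrounding redox pathways were described by lists of 72 other genes, of which 68 had a probe set of their own under the listed name. A gene's value is the mean over its probe sets that name no other gene. In the arrays labelled heat shock 22 of the 68 fell, 8 rose and 38 did not pass (limma adjusted p under 0.05 over all genes), where 14.8% of all 17118 genes fell and 15.2% rose. The median log2 fold change of the 68 was -0.32, against 0.13 over all genes. With the first array labelled heat shock left out 0 of the 68 passed by limma (27 at an unadjusted p under 0.05), and with the second left out 6 passed. In the microwave comparison 0 of the 68 passed (0% of all genes), and list medians lay between -0.03 and 0.08.

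Of 12 genes of the thioredoxin and peroxiredoxin systems 5 rose, 2 fell and 5 did not pass, where 15.2% of all genes rose and 14.8% fell. The 1-Cys peroxiredoxin gene prdx-6 rose, with log2 ratios of -0.06 and 0.05 in the controls against 1.92 and 1.72 in the arrays labelled heat shock (log2 fold change 1.82 ± 0.13, SE, n = 2 per group; limma adjusted p = 0.00248). The mitochondrial peroxiredoxin gene prdx-3, whose protein TRX-2 serves, rose 2.18-fold, and trx-4 rose 2.37-fold. The methionine sulphoxide reductase gene msra-1 fell 3.56-fold (limma adjusted p = 0.0438), though its controls read 0.52 and -0.82. The mitochondrial thioredoxin reductase gene trxr-2, chosen after its value was seen, stood at -0.03 ± 0.13 (SE; limma adjusted p = 0.896).

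Of 15 measured genes of glutathione synthesis, reduction and use 2 rose, 3 fell and 10 did not pass, with a median log2 fold change of -0.10; 5 of 15 is near the 30.0% of all genes that passed, so the count is no result about the list. The glutathione synthetase gene gss-1, which acts after gcs-1, fell 2.27-fold (log2 fold change -1.19 ± 0.23, SE, n = 2 per group; limma adjusted p = 0.0211). The glutathione reductase gene gsr-1 fell 1.74-fold. The mitochondrial glutaredoxin gene glrx-5 rose 2.34-fold (log2 fold change 1.23 ± 0.15, SE; limma adjusted p = 0.00576), and the glutathione peroxidase gene gpx-4 rose 1.74-fold (adjusted p = 0.0462). The gene for the modifier subunit of glutamate-cysteine ligase, gclm-1, stood at 0.27 ± 0.15 (SE; limma adjusted p = 0.212) while gcs-1 fell; it was chosen after its value was seen.

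NADPH, which recharges glutathione and thioredoxin, comes from a few dehydrogenases. Of 7 measured genes of this supply 3 fell, 0 rose and 4 did not pass, where 14.8% of all genes fell and 15.2% rose. The glucose-6-phosphate dehydrogenase gene gspd-1 read -0.25 and 0.22 in the controls and -2.52 and -2.75 in the arrays labelled heat shock (log2 ratios). It fell 6.13-fold (log2 fold change -2.62 ± 0.20, SE, n = 2 per group; limma adjusted p = 0.00259). The isocitrate dehydrogenase genes idh-2 (mitochondrial) and idh-1 (cytosolic) fell 5.17-fold and 2.90-fold. The decrease of gcs-1 lies between these.

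Of 15 measured genes of superoxide and peroxide sources and haem peroxidases 1 rose, 3 fell and 11 did not pass; 4 of 15 is below the 30.0% of all genes that passed, so the count is no result about the list. The dual oxidase gene duox-2 rose 1.52-fold (limma adjusted p = 0.0244). The gene doxa-1, for the maturation factor of the dual oxidase, fell 1.46-fold (limma adjusted p = 0.0317). The peroxidase gene skpo-3 fell 1.66-fold and memo-1 1.80-fold (limma adjusted p = 0.0163 and 0.027). Among regulators of antioxidant genes 11 of 19 fell, 0 rose and 8 did not pass, with a median log2 fold change of -0.69. Of all genes 14.8% fell and 15.2% rose. The list was not split by whether a gene raises or lowers antioxidant genes, so the count gives no direction of regulation. The p38 kinase gene pmk-1 read 0.02 and -0.02 in the controls against -2.59 and -2.47 in the arrays labelled heat shock and fell 5.78-fold (limma adjusted p = 0.00232). The kinase gene akt-1 fell 4.06-fold, and the transcription factor genes skn-1 and pqm-1 each fell 2.65-fold. The transcript of daf-16, chosen after its value was seen, stood at -0.31 ± 0.18 (SE; limma adjusted p = 0.24).

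**Figure D4:**
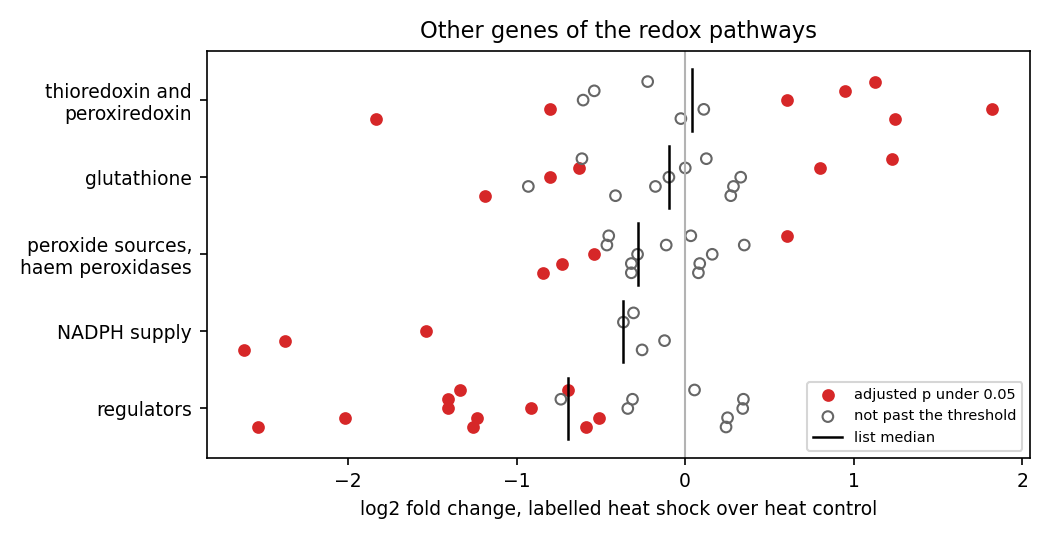
Log2 fold change of the arrays labelled heat shock over the heat controls (horizontal axis) for the 68 measured genes of 5 redox lists (rows); filled points passed an adjusted p of 0.05 by limma, open points did not, and the black line is the list median. Both directions occur among thioredoxin and glutathione genes, while the called genes of NADPH supply (3) and of the regulators (11) are all lower.

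Markers of the intestine, body wall muscle and hypodermis were mostly lower among those that passed in the heat comparison, where 14.8% of all genes fell and 15.2% rose. Of 10 intestinal markers 7 fell and 1 rose, with a mean log2 ratio of -0.18 and 0.12 in the controls and -0.50 and -0.44 in the arrays labelled heat shock. Of 9 body wall muscle markers 5 fell and 1 rose, and of 8 hypodermal markers 3 fell and 1 rose. Among 8 sperm markers 3 rose and 1 fell. Of 10 germ line markers 2 fell and 1 rose, and of 10 neuronal markers 1 rose and 1 fell, which is at or below the 30.0% of all genes that passed in either direction. The part of these tissues in the changes of the antioxidant genes was not tested.

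For the genes with the largest heat changes among the members with a probe set of their own, gcs-1 and ctl-2, the other genes with the most similar pattern were sought over 7 arrays (5 microwave, 2 labelled heat shock). Likeness was the root mean square difference of the log2 ratios. Nearest to gcs-1 were bus-5, bre-1 and cey-1, at 0.10, 0.103 and 0.105 log2 units, with heat log2 fold changes of -1.75 ± 0.33, -1.99 ± 0.14 and -2.0 ± 0.14 (SE, n = 2 per group). Nearest to ctl-2 were rrsr-1, C14C6.5 and dpy-11, at 0.046, 0.061 and 0.063 log2 units, with heat log2 fold changes of -1.59 ± 0.13, -1.32 ± 0.50 and -1.50 ± 0.35 (SE). These genes were chosen for their likeness over arrays that include both labelled heat shock, so their heat values follow from the choice and are a description only.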

How the data were processed

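Total RNA of whole worms was hybridised to 14 arrays, grouped by their titles. The values analysed were linear ratios deposited by the authors; GCOS and MAS 5 are named per the labels' protocols and RMA per the submitters' processing notes. Which of these made the ratios, their baselines and the genome build are not given in the sources used here. In the values, 0 sham entries differ from 1, and the pair of heat controls adds up to 2 (tolerance 0.001) for every probe set. The array information sheets held no measurement and gave no date of scanning, so batches were not testable.

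Of 22625 probe sets, 77 controls were left out. Log2 ratios were fitted in R 4.3.3 with limma 3.58.1: the mean of the 5 microwave ratios against 0, which holds the pairing, and 2 against 2 heat arrays without a block, with eBayes, two-sided tests and Benjamini-Hochberg adjustment over all probe sets (threshold 0.05). Fits were tested on simulated data. The labels do not say that replicates come from separate cultures, so p-values measure the spread between these pooled samples. Gene names came from the platform annotation, updated by gene identifier to the RefSeq table of assembly WBcel235, which also gave the order of the catalase genes and gene lengths; 20766 tested probe sets had 1 gene, 887 several and 895 were not listed. Probe sets with _s_at in their name can match several transcripts.

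The genes and lists were chosen with earlier results of these data known. All probe sets of the 10 genes are named; from each pathway list up to 4 called genes with the largest heat change, and for likeness the 3 nearest genes to the 2 members with the largest heat change. Alternatives were median centring, quantile normalisation, a test without multi-match probe sets, other variance models, a replicate block, removal of a gene length trend, and leaving out each pair or array.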

Additional observations from a re-analysis of the deposited data

Results flagged for a closer look

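Over the 5 microwave pairs, 14 probe sets were examined for a single distant value, namely the 11 of the antioxidant genes and the 3 catalase controls. Chance marks about 1 in 20 such groups if all 5 values share 1 spread, and 2 of the 14 were marked. Pair 1 had the wider spread over all probe sets (SD 0.387 against 0.101 to 0.164), so that rate does not hold for it. Both marked probe sets are controls named for catalase and are not independent. The catalase control at the 5' end read 1.94 in pair 1, while pairs 2 to 5 gave -0.05 to 0.25. The control in the middle read 0.80 in pair 1, while pairs 2 to 5 gave 0.03 to 0.19. Without pair 1 their mean log2 ratios were 0.14 and 0.11.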

How the results depend on the processing

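In the microwave comparison 0 of 22548 probe sets and 0 of the 11 antioxidant probe sets passed by limma under each of the 10 alternatives run, with 390 to 1748 probe sets at an unadjusted p under 0.05. Values that never passed changed sign around 0. Leaving out 1 pair gave log2 ratios from -0.020 to 0.077 for the unique gcs-1 probe set, from -0.024 to 0.031 for the shared catalase probe set, from -0.031 to 0.086 for ctl-2, from -0.016 to 0.111 for sod-4, from -0.026 to 0.234 for sod-1, from -0.088 to 0.046 for sod-3 and from -0.037 to 0.063 for sod-2. With array weights the unique gcs-1 probe set stood at -0.011, its multi-match probe set at 0.096 and the unique trx-2 probe set at -0.096. In the heat comparison 6774 probe sets passed, 3317 higher and 3457 lower; the split was 2177 higher and 3943 lower with median centring, 4882 and 3838 with 9 arrays sharing the spread, 2407 and 1931 without probe sets that can match several transcripts, and 1739 and 2573 with the replicate block. The count was 4338 without probe sets that can match several transcripts, 4312 with the replicate block and from 0 (limma, without the first array labelled heat shock; 6642 at an unadjusted p under 0.05) to 6594 with 1 array left out, and 1108 without the second array labelled heat shock; the lone array of a group is then assumed to vary like the other group. The causes of these changes were not tested, beyond the smaller number of arrays or probe sets. The deviations of heat control 1 and heat shock 1 from their group means correlated at -0.05 over probe sets, so the numbers were not taken to pair the arrays. Of the antioxidant probe sets 8 passed; 4 of the 6 that remain did so without probe sets that can match several transcripts, 7 passed with the replicate block, which ended the sod-2 call, and 0 to 8 with 1 array left out. Pathway genes numbered 30, and 0 to 32 with 1 array left out (22 with the block). Quantile normalisation of the heat ratios left 0 probe sets and 0 of the 11 (limma; 1959 and 5 at an unadjusted p under 0.05); it gives the control ratios, with SDs of 0.193 and 0.204, the same distribution as the other 2, with SDs of 0.758 and 0.718. The sod-3 heat value lay from -0.006 (without heat control 2) to 0.26 with 1 array left out. With a gene length trend removed, 7 of the 10 antioxidant probe sets that name 1 gene passed by limma. The log2 fold change of ctl-2 was then -1.415, and those of gcs-1 were -2.017 (unique) and -1.658 (multi-match). Arrays give ratios here, so signal over background is unknown. In the difference between comparisons 7 to 9 of the 11 passed under alternatives chosen after seeing the data.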
